A study of Caenorhabditis elegans with 18 samples.

Results

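T14F9.5 is the sequence name of lin-32, and the comparison described here sets worms given the T14F9.5 plasmid against worms given the vector L4440 at an age of 1 day. It rests on 6 of the 18 libraries of the series, 3 for each plasmid, chosen by the plasmid and the age in the labels. All 6 are RNA-seq libraries of total RNA from whole Caenorhabditis elegans of the wild-type strain N2, all hermaphrodites, with no other allele or agent named. The labels give the plasmid as the perturbation and do not state how it was delivered, when the 1 day was counted from, or whether separate cultures gave the 3 libraries of each group. The p-values below therefore measure the spread between these samples, which may be technical. L4440 is in general use as the empty vector of RNAi feeding experiments, and its libraries are the controls here. A further 3 day-1 libraries carry the plasmid M05B5.5, which is hlh-2, and are used beside these 6.

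lin-32 encodes a basic helix-loop-helix transcription factor of the atonal family. Such factors bind DNA as dimers with an E-type partner, which in C. elegans is HLH-2. Worms that lack lin-32 function fail to make several classes of sensory neuron, among them touch receptor neurons, dopaminergic neurons and oxygen-sensing neurons, and the gene acts mainly while these cells are born. In a whole adult those neurons are a small share of the tissue, so that RNA from the germ line, intestine, epidermis and muscle makes up most of a library. In such bulk samples fewer cells of a type and less RNA per cell cannot be told apart.

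The transcript of lin-32 itself did not stand lower than in the controls. The gene (WBGene00003018) is protein-coding and lies on the minus strand of chromosome X, at bases 2229055 to 2230122 of the WBcel235 build. It stood at 1.7, 2.51 and 1.79 counts-per-million (CPM, scaled by TMM factors) in L4440 replicates 1, 2 and 3, and at 2.41, 2.13 and 1.92 CPM in the 3 libraries labelled T14F9.5. These levels rest on 61, 60 and 65 reads and on 84, 74 and 73 reads. The 2 groups overlapped, with a log2 fold change of 0.12 ± 0.28 (SE; edgeR quasi-likelihood test, Benjamini-Hochberg adjusted p = 0.794). Without L4440 replicate 2 the value was 0.31 ± 0.27 (edgeR adjusted p = 0.598). Within lane 1 the libraries labelled T14F9.5 stood above L4440 by 0.41 on the log2 scale, and within lane 2 they stood at -0.14. Directions given below refer to the libraries labelled T14F9.5 and not to a measured loss of the lin-32 transcript.

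The transcript of the dimer partner was also not lower. hlh-2 (WBGene00001949) is a protein-coding gene of chromosome I, on its minus strand at bases 7190788 to 7193920. Its level was 45.3, 23.1 and 52.7 CPM in L4440 and 62, 53.2 and 63.7 CPM in the libraries labelled T14F9.5. All 3 libraries labelled T14F9.5 lay above all 3 of L4440, and the lowest of those 6 values was that of L4440 replicate 2. The log2 fold change was 0.56 ± 0.27 over all libraries and 0.29 ± 0.13 without that replicate (edgeR adjusted p = 0.267 and 0.358). Of the other 8 tested genes of the list of HLH-2 partners, which encode tissue-specific basic helix-loop-helix factors, none had groups without overlap. hnd-1, the worm relative of the Hand genes, stood at 7.57, 7.91 and 5.94 CPM against 6.69, 7.8 and 8.08 CPM.

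The libraries of a group did not lie together, and this bears on every value below. The 6 libraries held 27024193 to 38114586 counts. L4440 replicate 2 was the outlying one: its root mean square log2 distance to the other 8 day-1 libraries ran from 0.854 to 1.31, whereas T14F9.5 replicates 1 and 3 were 0.34 apart. T14F9.5 replicate 2 lay 0.539 and 0.545 from its group mates and 0.502 from L4440 replicate 1, its nearest library, whose description carries the same index and lane. Log2 CPM changed with each doubling of gene length by -0.181, -0.608 and 0.0576 in L4440 replicates 1, 2 and 3, and by 0.21, -0.111 and 0.165 in T14F9.5 replicates 1, 2 and 3. The labelled tissue could be seen in its markers. The yolk gene vit-6 stood at 12577 to 24638 CPM over the 6 libraries, the muscle myosin unc-54 at 273 to 775 CPM, and the germ line helicase glh-1 at 289.8 to 367 CPM.

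No gene passed the adjusted threshold of 0.05 in either form of the comparison. With all libraries, 0 of 14105 genes (0%) were called by edgeR, and the lowest adjusted p was 0.148. At an unadjusted p under 0.05, 1142 genes were higher (8.1%) and 1592 were lower (11.3%) in the libraries labelled T14F9.5. Without L4440 replicate 2, 0 of 14295 genes (0%) were called, the lowest adjusted p was 0.276, and 1998 genes (14%) had an unadjusted p under 0.05, of which 1047 were higher (7.32%) and 951 lower (6.65%). DESeq2 called 207 genes (115 higher, 92 lower) with all libraries and 78 genes (57 higher, 21 lower) without that replicate, and 49 genes were shared between these lists. With L4440 replicate 3 left out, edgeR called 3058 genes. With L4440 replicates 2 and 3 both left out it called 631, where 1 control library is left and is assumed to vary like the other groups.

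Leaving out L4440 replicate 2 changed sizes more than signs. The interquartile range of log2 fold changes ran from -0.37 to 0.32 with it and from -0.21 to 0.22 without it. Genes that differed by more than 1 on the log2 scale numbered 872 with it and 394 without it. Of the 14105 genes tested in both fits, 11814 had the same sign. The 2 fits share 5 of their 6 libraries, so this count describes them and is no independent support.

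**Figure D1:**
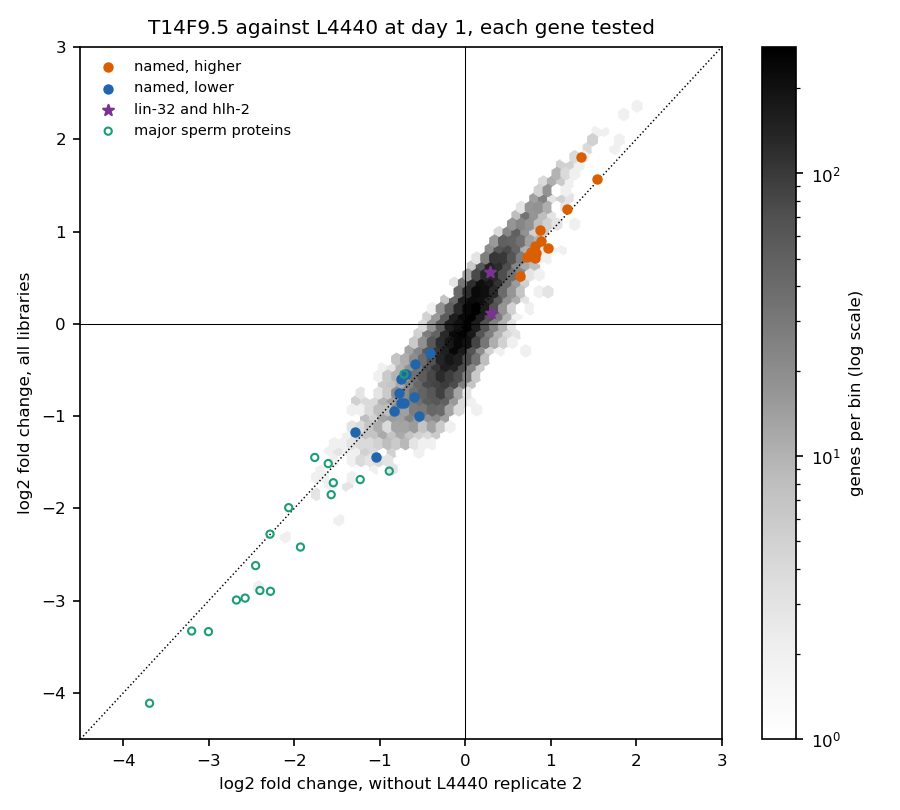
Each gene's log2 fold change, libraries labelled T14F9.5 over L4440, without L4440 replicate 2 (horizontal) and with all libraries (vertical), with shading by the number of genes per bin on a log scale and a dotted line of equality. The named genes lie near the line, the cloud of all genes is steeper than the line, and the major sperm proteins lie at the lower left, between -0.72 and -3.69 without the replicate.

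The difference followed gene length. With the genes put into 5 bins of equal size by length, the shortest had 17 to 797 exonic bases and a median log2 fold change of -0.53 with all libraries and -0.20 without L4440 replicate 2. In the longest bin, with 2319 to 56044 bases, it was 0.43 and 0.22. The 3 bins between them stood in order of length in both fits, from -0.21 and -0.08 to 0.18 and 0.10. Gene lists below are therefore given also with the median from a fit that carries an offset for each library's length trend. In that fit the median over all genes was -0.04 with all libraries and 0.01 without L4440 replicate 2. What the trend itself comes from was not tested.

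**Figure D2:**
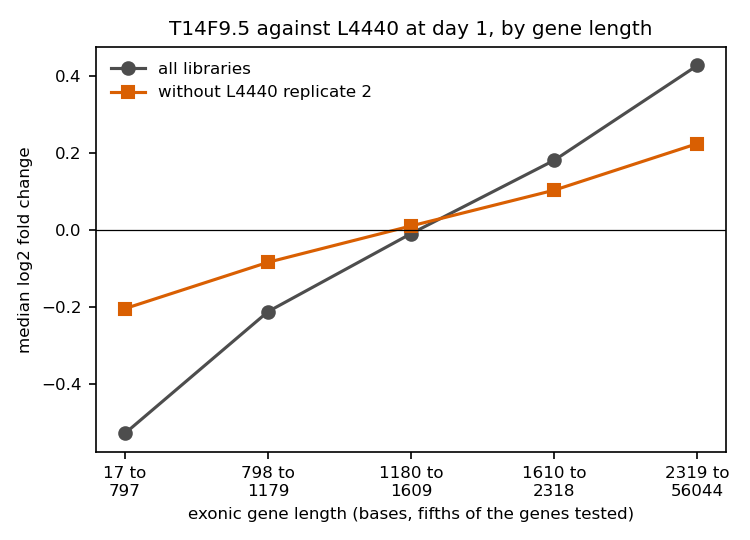
Median log2 fold change (vertical), libraries labelled T14F9.5 over L4440, in 5 equal bins of the tested genes by exonic length in bases (horizontal), with all libraries (circles) and without L4440 replicate 2 (squares). Both lines climb from the shortest genes to the longest, from -0.53 to 0.43 with all libraries and from -0.20 to 0.22 without the replicate.

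Individual genes whose groups stood well apart are given next. Over all genes, the 3 libraries labelled T14F9.5 lay above all 3 of L4440 for 1255 of 14105 genes (8.9%) and below them for 1163 (8.25%). Of the protein-coding genes with groups that did not overlap and a mean of at least 5 CPM, 949 were higher and 426 lower. The 12 of lowest unadjusted p in each direction are named here, and none of these 24 passed the adjusted threshold. With all libraries their edgeR adjusted p ran from 0.148 to 0.255, and without L4440 replicate 2 from 0.276 to 0.309.

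The gene with the lowest p in both fits was ugt-63 (WBGene00015449, chromosome V from 5108180 to 5110772, minus strand), a member of the UDP-glucuronosyltransferases, which conjugate sugar to small hydrophobic molecules. It stood at 8.66, 7.74 and 8.01 CPM in L4440 and at 23.8, 25.5 and 22.9 CPM in the libraries labelled T14F9.5, so that the groups were separated by far more than their spread. Its log2 fold change was 1.56 ± 0.17 with all libraries and 1.54 ± 0.19 without L4440 replicate 2 (edgeR adjusted p = 0.148 and 0.276). Without a filter on low counts it was called in the fit without that replicate (edgeR adjusted p = 0.0098), and with the gene length offset as well (edgeR adjusted p = 0.0354). The M05B5.5 libraries stood at 15.6, 24.2 and 19.7 CPM. They were thus also above all 3 of L4440, in a comparison that shares those controls.

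2 of the named genes carry the name very early transcript, given to genes first transcribed in the early embryo. vet-6 (WBGene00006902, chromosome I from 13269984 to 13272781, plus strand) stood at 27.3, 27.1 and 34.5 CPM in L4440 and at 71.5, 65.4 and 74.3 CPM in the libraries labelled T14F9.5. Its log2 fold change was 1.25 ± 0.17 and, without L4440 replicate 2, 1.19 ± 0.18 (edgeR adjusted p = 0.255 and 0.309). Every library labelled T14F9.5 held about the same level, and L4440 replicate 2 stood with its group mates here. vet-2 (WBGene00016453, chromosome I from 10846772 to 10850103, plus strand) stood at 46.6, 52.9 and 47 CPM against 81, 87.2 and 80.9 CPM, with log2 fold changes of 0.77 and 0.83. C35E7.3, on the same strand from 10836979 to 10839012, stood at 4.98, 6.57 and 5.05 CPM against 8.94, 10.9 and 9.45 CPM.

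The other 8 higher genes were of several kinds. swt-3, a gene of the SWEET sugar transporter family, stood at 5.35, 5.4 and 5.85 CPM in L4440 and at 9.8, 8.95 and 9.69 CPM in the libraries labelled T14F9.5. fbxb-3, an F-box gene, stood at 3.68, 3.52 and 3.92 CPM against 6.41, 6.88 and 6.69 CPM. kin-33, named as a protein kinase, stood at 6.57, 8.33 and 6.66 CPM against 10.4, 9.79 and 10.6 CPM, and it alone of the 24 turned sign under an alternative: with the gene length offset and all libraries its log2 fold change was -0.0353, against 0.52 without the offset. gadr-2 stood at 4.71, 3.56 and 5.52 CPM against 9.25, 8.2 and 10.5 CPM. For Y50D4B.4 the spread was widest, at 5.46, 0.795 and 5.33 CPM against 16.3, 9.12 and 15.6 CPM, and L4440 replicate 2 alone took its log2 fold change from 1.35 to 1.81. T22B2.1, Y44A6C.2 and Y59H11AR.4 had log2 fold changes of 0.81, 0.72 and 0.88 without that replicate.

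In most of the 12 lower genes the controls were spread more widely than the libraries labelled T14F9.5. anc-1 encodes the giant KASH protein that anchors nuclei and mitochondria in the syncytial epidermis. It lies on chromosome I from 4318033 to 4359092 and stood at 43.5, 30.3 and 45.1 CPM in L4440 and at 26.2, 26.8 and 25.8 CPM in the libraries labelled T14F9.5, which were tight and all below the lowest control. Its log2 fold change without L4440 replicate 2 was -0.75 ± 0.17 (edgeR adjusted p = 0.309). pigc-1, named for a subunit of the enzyme that starts glycosylphosphatidylinositol anchors, stood at 102, 59.6 and 72.8 CPM against 55.1, 58.9 and 58.9 CPM, a gap to L4440 replicate 2 that is smaller than the spread of either group. gst-4, a glutathione S-transferase that responds to oxidative stress through SKN-1, stood at 29.1, 35.6 and 21.4 CPM against 16.9, 17.6 and 15.3 CPM.

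The lower gene of largest change without L4440 replicate 2 was ZC247.1, at 12.5, 8.33 and 9.75 CPM against 4.71, 4.12 and 4.78 CPM and a log2 fold change of -1.29 ± 0.24 (edgeR adjusted p = 0.309). bath-35, a gene of the BTB and MATH domain family, stood at 7.13, 11 and 4.09 CPM against 2.53, 3.14 and 2.44 CPM. Its control libraries ran from 4.09 to 11 CPM, and those labelled T14F9.5 were all lower than the lowest. bigr-1 stood at 11.8, 12.26 and 8.06 CPM against 6.32, 5.24 and 5.09 CPM and txt-4 at 7.52, 7.03 and 7.54 CPM against 4.17, 4.86 and 4.09 CPM. Y48G1A.2, epic-2, Y71A12B.12, C16A11.5 and C50C3.1 had log2 fold changes of -0.70, -0.54, -0.71, -0.75 and -0.41 without that replicate.

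**Figure D3:**
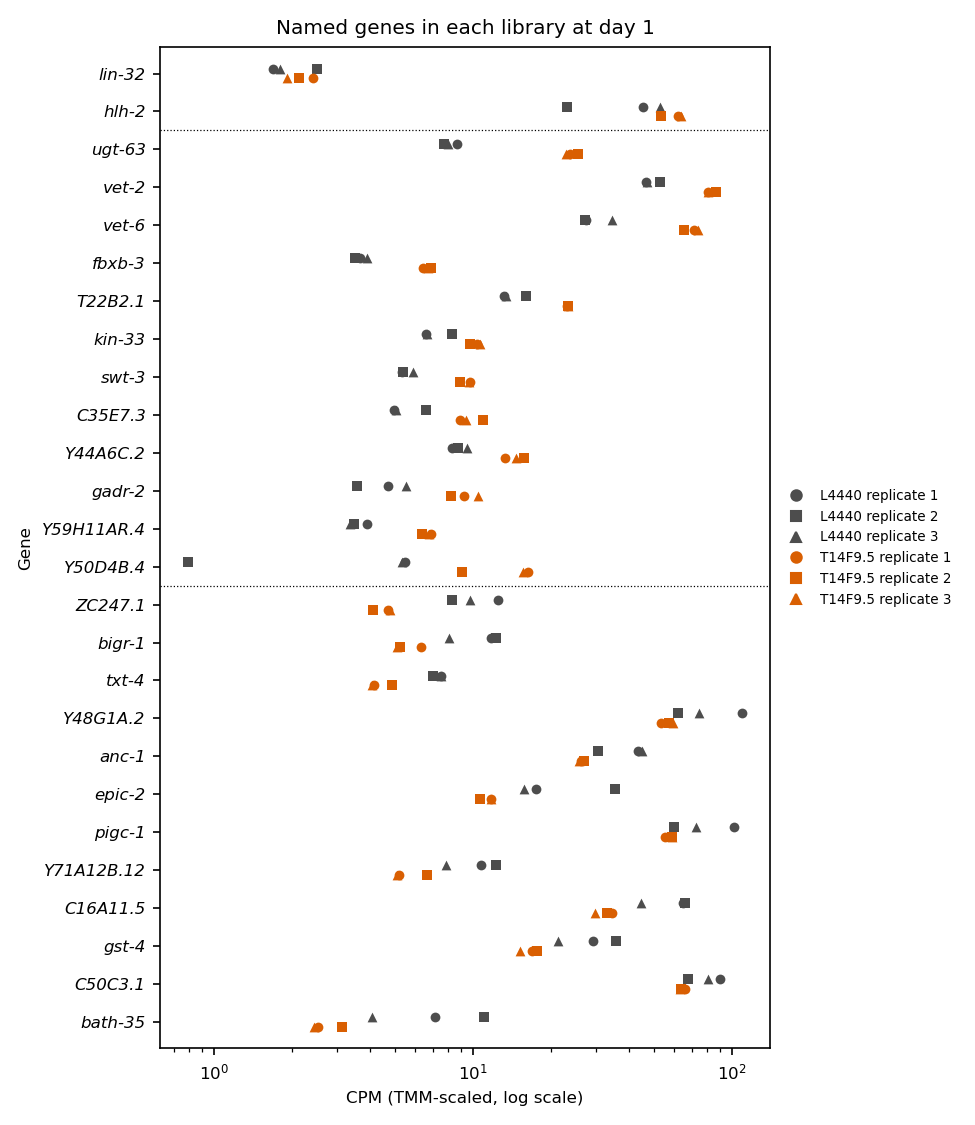
CPM on a log scale (horizontal) of lin-32, hlh-2 and the 24 named genes (vertical) in each of the 6 libraries, L4440 in grey and T14F9.5 in orange, with the replicate given by the symbol. lin-32 overlaps between the groups, ugt-63 and vet-6 show the clearest gap among the higher genes, and Y50D4B.4 and epic-2 show L4440 replicate 2 away from its group mates.

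The libraries of the other plasmid stood close to T14F9.5 replicates 1 and 3 and about as close to L4440 replicate 3. Their root mean square log2 distances ran from 0.301 to 0.397 to those T14F9.5 replicates and from 0.378 to 0.393 to L4440 replicate 3. To T14F9.5 replicate 2 they ran from 0.531 to 0.565. The 24 named genes were picked by the gap between T14F9.5 and L4440, so their values only describe. For the 12 higher genes the log2 difference T14F9.5 minus M05B5.5 ran from -0.18 to 0.28, and for the 12 lower genes from -0.29 to 0.22 (edgeR adjusted p = 1 for each of the 24). The fold changes of M05B5.5 over L4440 ran from 0.56 to 1.52 and from -1.46 to -0.31 for the same genes, but they use the same L4440 libraries and are not independent. Over all genes the direct comparison of T14F9.5 with M05B5.5 called 3 of 14105 genes (0.0213%), all higher, and 274 (1.94%) had an unadjusted p under 0.05, 156 of them higher (1.11%) and 118 lower (0.837%). T14F9.5 and M05B5.5 share no lane at day 1, so in it the lane cannot be told apart from the plasmid.

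Those 3 genes differed through their level in the M05B5.5 libraries. arrd-1, an arrestin domain gene, stood at 22.3, 19.8 and 21.5 CPM in L4440, at 7.6, 9.55 and 8.92 CPM in M05B5.5 and at 24.4, 27.4 and 24.6 CPM where the label was T14F9.5. The T14F9.5 libraries lay above those of M05B5.5 by 1.55 on the log2 scale (edgeR adjusted p = 0.0126) and above those of L4440 by 0.26. fbxb-38 and fbxb-42, both F-box genes, lay above M05B5.5 by 1.73 and 1.39 (edgeR adjusted p = 0.0126 and 0.0484), and above L4440 by 0.57 and 0.20. hlh-2 itself, the gene that M05B5.5 names, stood at 12.5, 11.9 and 11.1 CPM in those libraries and was 2.33 higher in T14F9.5, with an edgeR adjusted p of 0.0564. With any 1 of the 6 libraries of this comparison left out, or without the pair that shares index and lane, 0 genes were called.

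The gene groups follow, and since no gene passed the threshold they are described by counts and medians beside those of all genes. In each group up to 2 members are named as its most abundant, and any other member was named after its values were seen. With all libraries 48.5% of all genes had a fold change above 0 and 51.5% under 0. A median against M05B5.5 is that of the log2 differences T14F9.5 minus M05B5.5, which over all genes was 0.003. Where it is near 0, the list stood about alike with both plasmids, and its gap to L4440 is not particular to T14F9.5. Of the neurons that need lin-32, the touch receptor and dopaminergic lists had medians near 0 before the length offset and under 0 with it. The list of oxygen-sensing neurons had a median of -0.20 with all libraries and 0.01 without L4440 replicate 2. Of 15 listed touch receptor genes 13 were tested, with a median log2 fold change of 0.06 with all libraries and 0.00 without L4440 replicate 2, against -0.02 and 0.01 over all genes. With the length offset the medians were -0.18 and -0.03, the genes having a median of 1564 bases. mec-15, an F-box gene needed for touch sensation, stood at 93.7, 122.7 and 121 CPM in L4440 and at 121, 125 and 122.5 CPM in the libraries labelled T14F9.5. mec-3, the homeodomain factor that specifies these cells, stood at 1.2, 0.963 and 0.635 CPM against 0.546, 0.633 and 0.866 CPM. mec-17, a tubulin acetyltransferase of the same neurons, stood at 4.82, 8.75 and 4.83 CPM against 5.43, 7.11 and 5.25 CPM, and in none of these 3 did the groups separate. mec-1, an extracellular protein of the touch receptor attachment, was the 1 member with all 3 libraries labelled T14F9.5 above the controls (1.17, 0.921 and 1.38 against 2.3, 1.44 and 2.1 CPM).

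Genes of dopaminergic and oxygen-sensing neurons were in part measured at low levels. The dopamine genes cat-4, ceh-43 and bas-1 were not so low, and bas-1 overlapped at 14.3, 17.25 and 13.7 CPM against 15.4, 17.6 and 14.5 CPM. All 8 listed dopamine genes were tested, with a median of 0.03 in both fits, and of -0.21 and -0.11 with the length offset. cat-4, which makes the cofactor of tyrosine hydroxylase, stood at 44.2, 51.8 and 47.3 CPM against 48.3, 63.7 and 49 CPM, and the transporter gene dat-1 at 0.807, 0.209 and 0.663 CPM against 0.833, 0.288 and 0.525 CPM. ceh-43, a Distalless homeodomain factor of dopaminergic neurons, stood at 12.64, 13.2 and 15.6 CPM against 18, 17.6 and 18.6 CPM, with the 3 libraries labelled T14F9.5 above all controls (edgeR adjusted p = 0.347 without L4440 replicate 2). Of 7 listed genes of oxygen-sensing neurons 5 were tested, and 4 of these had a fold change under 0 with all libraries. Their median was -0.20, and -0.39 with the length offset, and none of the 5 had groups without overlap. Without L4440 replicate 2, 6 genes were tested, gcy-37 being added, and the medians were 0.01 and, with the offset, 0.02. gcy-37 lay above all controls, at 0.223, 0.0419 and 0.193 CPM against 0.23, 0.288 and 0.262 CPM, on 1 to 10 reads per library. flp-8, an FMRFamide-like neuropeptide gene and the most abundant of the oxygen-sensing list, stood at 3.68, 9.46 and 3.09 CPM against 2.33, 4.09 and 2.81 CPM, where L4440 replicate 2 was the highest. Its log2 fold change was -0.80 with all libraries and -0.13 without that replicate. Of the soluble guanylate cyclase genes, gcy-35 stood at 0.529, 0.293 and 0.276 CPM and 0.603, 0.806 and 0.394 CPM and gcy-36 at 0.306, 0.126 and 0.359 CPM and 0.287, 0.201 and 0.184 CPM. Values under 1 CPM rest on few reads, and none of these genes passed the adjusted threshold. What size of difference could be detected in such genes was not tested.

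Wider neuronal lists did not share a direction. Of 51 listed genes of cilia and intraflagellar transport 40 were tested, 3 (7.5%) with the libraries labelled T14F9.5 above all controls and 4 (10%) below, shares near the 8.9% and 8.25% of all genes. The medians were -0.05 and, without L4440 replicate 2, where 43 were tested, -0.09. With the length offset they were -0.41 and -0.19, at a median length of 2334 bases. The most abundant, daf-19, overlapped at 29.6, 13.4 and 34.7 CPM against 34.4, 23.4 and 33.6 CPM. klp-20, the next, overlapped at 15.7, 8.58 and 15.1 CPM against 15, 9.93 and 13.5 CPM. Of the 4 lower genes osm-3, the kinesin motor of the distal cilium of sensory neurons, was picked after its values were seen. The 3 higher genes are not named here. osm-3 stood at 6.15, 4.19 and 3.07 CPM in L4440 and at 2.1, 2.19 and 1.92 CPM in the libraries labelled T14F9.5, with a log2 fold change of -1.15 ± 0.31 (edgeR adjusted p = 0.309) without L4440 replicate 2. It lay lower in 3 of 3 libraries, while the M05B5.5 libraries stood at 3.05, 2.44 and 1.67 CPM. Of 45 synapse and transmitter genes, 35 had a fold change above 0 and 10 below, with a median of 0.27 and, without that replicate, 0.13. Their median length was 2275 bases, and with the length offset the medians were 0.04 and 0.00. The panneuronal gene unc-119 stood at 22.9, 24.6 and 19.9 CPM against 18.7, 23.6 and 19.4 CPM.

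Peptide hormone genes were mostly on the lower side. Of 39 listed insulin-like genes 24 passed the filter on low counts. Of these, 22 had a fold change under 0, and for 5 (20.8%) the libraries labelled T14F9.5 lay below all controls, beside 8.25% of all genes. The median was -0.51 with all libraries and -0.39 without L4440 replicate 2, and -0.09 and -0.17 with the length offset, the genes having a median of 513.5 bases. Against M05B5.5 the median was 0.06. ins-34, the most abundant, stood at 7.63, 8.79 and 5.85 CPM against 5.32, 7.11 and 6.72 CPM and overlapped. ins-7, an agonist of the insulin receptor DAF-2, stood at 1.56, 2.13 and 1.1 CPM against 0.776, 0.979 and 0.761 CPM. Of 15 tested antimicrobial peptides of the epidermis 13 were on the lower side, beside 51.5% of all genes. For 5 (33.3%) the libraries labelled T14F9.5 lay below all controls and for 0 above, beside 8.25% and 8.9% of all genes. The medians were -0.87 and -0.43, and -0.29 and -0.18 with the offset, at a median length of 354 bases. The shortest length bin, where that length falls, had medians of -0.53 and -0.20 without the offset. Against M05B5.5 the median of the list was 0.05. nlp-27 stood at 40.9, 74.7 and 25.5 CPM against 22.2, 26.7 and 22.2 CPM, where L4440 replicate 2 was the highest and replicate 3 fell among the libraries labelled T14F9.5.

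Enzymes of central carbon metabolism lay on the higher side more often than genes in general. Of 26 genes of the tricarboxylic acid (TCA) and glyoxylate cycles, 21 had a fold change above 0, and for 13 (50%) all 3 libraries labelled T14F9.5 lay above all 3 of L4440, beside 8.9% of all genes. For 1, icl-1, they lay below. The median log2 fold change was 0.22, and 0.21 without L4440 replicate 2, against -0.02 and 0.01 over all genes. Within lane 1 it was 0.24 and within lane 2 it was 0.21. Against M05B5.5 the median was 0.003. These genes had a median of 1693 bases, and with the length offset the medians were 0.13 and 0.17. 11 members had an unadjusted p under 0.05 with all libraries and 9 without that replicate, all on the higher side, and none passed the adjustment over all genes.

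The members differed widely in size. aco-2, the mitochondrial aconitase, stood at 576, 413 and 759 CPM in L4440 and at 1010.2, 798 and 987 CPM in the libraries labelled T14F9.5, with a log2 fold change of 0.68 ± 0.22 and, without L4440 replicate 2, 0.49 ± 0.16 (edgeR adjusted p = 0.255 and 0.312). cts-1, citrate synthase, stood at 618, 655 and 717 CPM against 788, 756 and 782 CPM. These 2 are the most abundant members, and both show L4440 replicate 3 as the control nearest to the libraries labelled T14F9.5. suca-1, a subunit of succinyl-CoA ligase, stood at 76.2, 34.3 and 111.9 CPM against 163, 137 and 161 CPM, and idhb-1, a subunit of isocitrate dehydrogenase, at 38.3, 28 and 67 CPM against 93.5, 69.6 and 91.8 CPM. pck-2, a phosphoenolpyruvate carboxykinase, stood at 381, 154 and 494 CPM against 697, 522 and 665 CPM. icl-1, the bifunctional enzyme of the glyoxylate shunt, stood at 288, 331 and 323 CPM against 282, 223 and 265 CPM. mdh-2, the mitochondrial malate dehydrogenase, was even, at 649, 664 and 639 CPM against 664, 672 and 653 CPM.

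**Figure D4:**
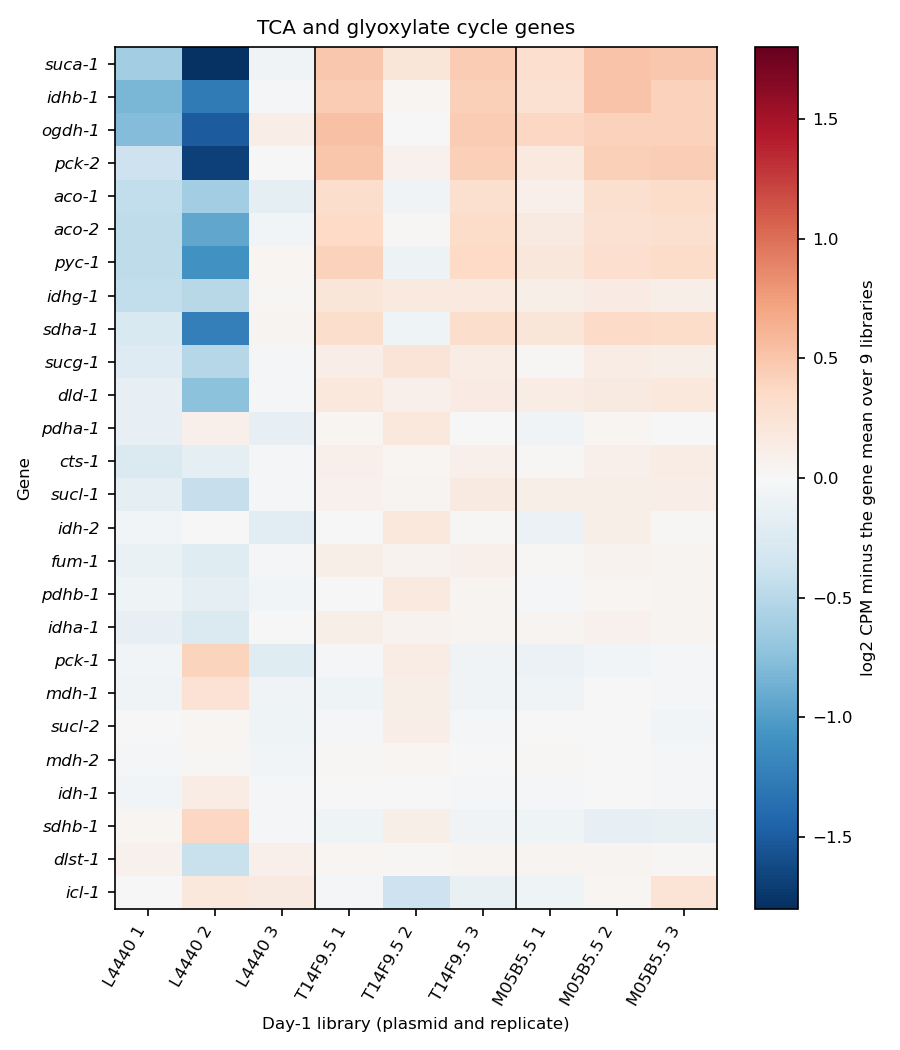
Log2 CPM of the 26 TCA and glyoxylate cycle genes (rows) in the 9 day-1 libraries (columns), each minus the gene's mean over those libraries, with red above and blue below the mean. L4440 replicates 1 and 2 are blue for most of the upper rows, L4440 replicate 3 is near the mean, and the T14F9.5 and M05B5.5 libraries are at or above it, whereas mdh-2 and idh-1 are even across the 9.

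The respiratory chain, which the TCA cycle feeds, gave no common direction. Of 38 nuclear respiratory chain genes, 8 (21.1%) had all 3 libraries labelled T14F9.5 above the controls and 0 below, beside 8.9% and 8.25% of all genes. Yet only 15 of the 38 had a fold change above 0, and the median was -0.15, or -0.01 without L4440 replicate 2. With the length offset the medians were 0.02 and 0.11. atp-2, the beta subunit of ATP synthase, stood at 1761, 1758 and 2167 CPM against 2502, 2328 and 2496 CPM. cyc-1, cytochrome c1, stood at 158, 155 and 315 CPM against 365, 360.1 and 369 CPM, where L4440 replicate 3 stood apart from its mates. None of the 12 transcripts of mitochondrial DNA had groups without overlap, and their medians were -0.03 and 0.00, or 0.29 and 0.12 with the offset.

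Genes of protein folding in the endoplasmic reticulum also lay on the higher side. Of 21 tested genes of the endoplasmic reticulum unfolded protein response, 20 had a fold change above 0, beside 48.5% of all genes. For 7 (33.3%) the groups did not overlap, all higher, beside 8.9% of all genes. The median of the list was 0.32, or 0.27 without L4440 replicate 2, and 0.08 and 0.18 with the length offset (median length 2081 bases). Against M05B5.5 the median was -0.06. crt-1, calreticulin, stood at 987, 1511 and 1050.1 CPM against 1193, 1429.5 and 1182 CPM and overlapped through L4440 replicate 2. pdi-3, a protein disulphide isomerase, stood at 869, 769.5 and 893 CPM against 997, 1016 and 996 CPM. hsp-3, a BiP chaperone of the endoplasmic reticulum, stood at 604, 485 and 705 CPM against 908, 856 and 917 CPM. Of 16 tested cytosolic heat shock genes 8 had a fold change above 0 and 8 below, with medians of 0.06 and, without L4440 replicate 2, 0.08. For 3 (18.8%) the libraries labelled T14F9.5 lay above all controls and for 0 below. The cytosolic chaperone gene hsp-90 stood at 2863, 3370.4 and 3726 CPM against 4860.5, 4814 and 4701 CPM (edgeR adjusted p = 0.255 and, without L4440 replicate 2, 0.309), while hsp-1, the constitutive HSP70, overlapped at 3879, 4623 and 3881 CPM against 4413, 4626 and 4380.5 CPM.

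Of 33 proteasome genes, 10 (30.3%) had all 3 libraries labelled T14F9.5 above the controls and 0 below, beside 8.9% and 8.25% of all genes. The median of the list was only 0.05, or 0.07 without L4440 replicate 2, and 0.05 and 0.13 with the length offset. Against M05B5.5 the median was 0.06. All 10 encode subunits of the regulatory particle (rpn-2, rpn-3, rpn-5, rpn-6.1, rpn-7, rpn-8, rpn-9, rpt-1, rpt-2 and rpt-5), out of 19 such genes tested, and none of the 14 core particle genes was among them. The regulatory genes had medians of 0.19 and 0.19 and the core genes of -0.15 and -0.05. The regulatory genes were also the longer, with a median of 1493 bases against 880.5, and with the length offset the medians were 0.04 and 0.15 for the regulatory genes and 0.12 and 0.09 for the core genes. rpn-2 stood at 350.3, 271 and 468 CPM against 589.6, 487 and 559.6 CPM. pas-3, an alpha subunit of the core, stood at 475, 757 and 388 CPM against 355, 501 and 376 CPM, with L4440 replicate 2 highest. The division by particle was made after the values were seen and was not tested.

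Detoxification genes lay on different sides by family. Of 58 UDP-glucuronosyltransferase genes tested, 17 (29.3%) had the libraries labelled T14F9.5 above all controls and 3 (5.2%) below, beside 8.9% and 8.25% of all genes. The median was 0.15, or 0.10 without L4440 replicate 2, and -0.03 and 0.05 with the length offset (median length 1718 bases), so that the list as a whole was close to all genes and the difference lay in some of its members. Against M05B5.5 the median was 0.04. The 2 most abundant are ugt-64, which overlapped at 73.2, 77.6 and 77.6 CPM against 73.5, 79.6 and 70.7 CPM, and ugt-44, which lay above all controls at 57.5, 38 and 59.5 CPM against 65.3, 69.97 and 67.1 CPM. ugt-62 stood at 48.5, 43.2 and 55 CPM in L4440 and at 71.9, 63.8 and 67.1 CPM in the libraries labelled T14F9.5. ugt-58 stood at 32.6, 31.1 and 33.4 CPM against 45.2, 44.8 and 43.2 CPM, and like ugt-44 both had every library labelled T14F9.5 above every control. Of 39 glutathione S-transferase genes, 13 (33.3%) lay below all controls and 0 above, beside 8.25% and 8.9% of all genes. The median of this family was -0.59, or -0.31 without L4440 replicate 2, and -0.23 and -0.15 with the length offset, at a median length of 749 bases. Against M05B5.5 the median was 0.11. The most abundant, gst-7, overlapped at 268, 525 and 217 CPM against 221, 317 and 225 CPM. Reads of near-identical members of these families may be split between them.

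Transcripts of early embryos, which a gravid worm carries, lay mostly on the higher side. Of 19 tested genes of the early zygotic list, 6 (31.6%) had the libraries labelled T14F9.5 above all controls and 1 (5.3%) below, beside 8.9% and 8.25% of all genes. The median was 0.26, and 0.23 without L4440 replicate 2, and it was larger with the length offset, at 0.43 and 0.37. Without the offset the median was only 0.04 within lane 1, and 0.29 within lane 2. Without L4440 replicate 2 and replicate 3 together, which leaves 1 control library, it was 0.07. Against M05B5.5 the median was 0.11. pes-10, one of the first genes transcribed in the embryo, stood at 15.5, 11.8 and 13 CPM against 22.4, 24.4 and 23.1 CPM, and nhr-2, a nuclear receptor of early embryos, at 25.9, 24.3 and 38.7 CPM against 49.3, 43.3 and 47.5 CPM. tbx-35, a T-box factor of the MS lineage, stood at 0.278, 0.126 and 0.0828 CPM against 0.603, 0.691 and 0.551 CPM. The maternal regulators skn-1 (213, 65.7 and 271 against 274, 159 and 257 CPM) and pal-1 (204, 99.2 and 212 against 186, 169 and 189.8 CPM), the most abundant of the list, overlapped. end-1, an endoderm factor of the embryo, stood at 2.06, 3.18 and 2.51 CPM against 1.64, 2.16 and 2.57 CPM.

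Transcripts of the major sperm proteins rested on very few reads. The major sperm proteins form the cytoskeleton of nematode sperm, which a hermaphrodite makes before it turns to oocytes. Summed over the 31 listed genes they stood at 5.93, 24.1 and 23.1 CPM in L4440, at 14.2, 24.1 and 7.61 CPM in M05B5.5 and at 1.93, 2.16 and 6.43 CPM in the libraries labelled T14F9.5. The groups overlapped in this sum, since T14F9.5 replicate 3 stood above L4440 replicate 1. Only 18 of the 31 passed the filter on low counts with all libraries, and they did so mostly through the L4440 and M05B5.5 libraries in which they are high. Their median log2 fold change, -2.35 with all libraries and -1.996 without L4440 replicate 2, is therefore bound to that filter and is given as a description. With the length offset it was -1.87 and -1.76. With no filter, 29 of the 31 entered the fit and the medians were -1.54 and -1.61. Without L4440 replicates 2 and 3 together, which leaves 1 control library, the median of those that passed was -0.69, and without L4440 replicate 2 and T14F9.5 replicate 3 it was -3.11.

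For 9 of the 18 (50%) the libraries labelled T14F9.5 lay below all controls, beside 8.25% of all genes, a count bound to the same filter. msp-76, the most abundant, stood at 0.39, 3.14 and 3.07 CPM in L4440, at 1.75, 3.55 and 0.412 CPM in M05B5.5 and at 0.0862, 0.173 and 0.367 CPM in the libraries labelled T14F9.5. Its edgeR adjusted p was 0.255 with all libraries and 0.322 without L4440 replicate 2. msp-81 stood at 0.111, 3.18 and 2.24 CPM against 0.144, 0.0576 and 0.499 CPM and overlapped through L4440 replicate 1. These genes are near-identical copies, so that the level of a single one is uncertain. Against M05B5.5 the median was -2.24. Of 62 listed genes of other sperm proteins 32 passed the filter, or 34 without L4440 replicate 2. Of the 32, 8 (25%) lay below all controls and 0 above, beside 8.25% and 8.9% of all genes. That count, too, leaves out the genes that did not pass the filter. Summed over the 62 listed genes, this list stood at 206, 186 and 233 CPM in L4440 and at 212, 189 and 206 CPM in the libraries labelled T14F9.5. The groups overlapped in this sum. The medians of this list were -0.58 and -0.59, or -0.50 and -0.59 with the length offset, and -0.86 and -0.70 with no filter, where 61 entered. The oocyte gene oma-1 stood at 439, 220.1 and 493 CPM against 497, 356 and 455 CPM.

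Body wall muscle, autophagy and replication genes had medians above 0 before the length offset. Against M05B5.5 the medians of these lists were -0.02, -0.02 and 0.01. Of 39 body wall muscle genes 28 had a fold change above 0, with a median of 0.29, or 0.24 without L4440 replicate 2, and 4 (10.3%) lay above all controls, a share near the 8.9% of all genes. With the length offset the medians were 0.09 and 0.18. act-2, an actin, overlapped at 970.0, 1448 and 1163 CPM against 1325, 1421 and 1314 CPM. Of 38 genes of autophagy and the lysosome, 9 (23.7%) lay above all controls and 1 below, with medians of 0.20 and 0.13, and 0.18 and 0.12 with the offset. vha-2, a subunit of the vacuolar proton pump, overlapped at 709.6, 402 and 709 CPM against 663, 617 and 668 CPM. Of 41 genes of DNA replication and the cell cycle, 8 (19.5%) lay above all controls and 1 below. Their medians of 0.22 and 0.12 became -0.02 and 0.05 with the offset, which turned the sign with all libraries. mcm-5, a subunit of the replicative helicase, stood at 348, 408 and 414 CPM against 528, 484 and 509.5 CPM.

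**Figure D5:**
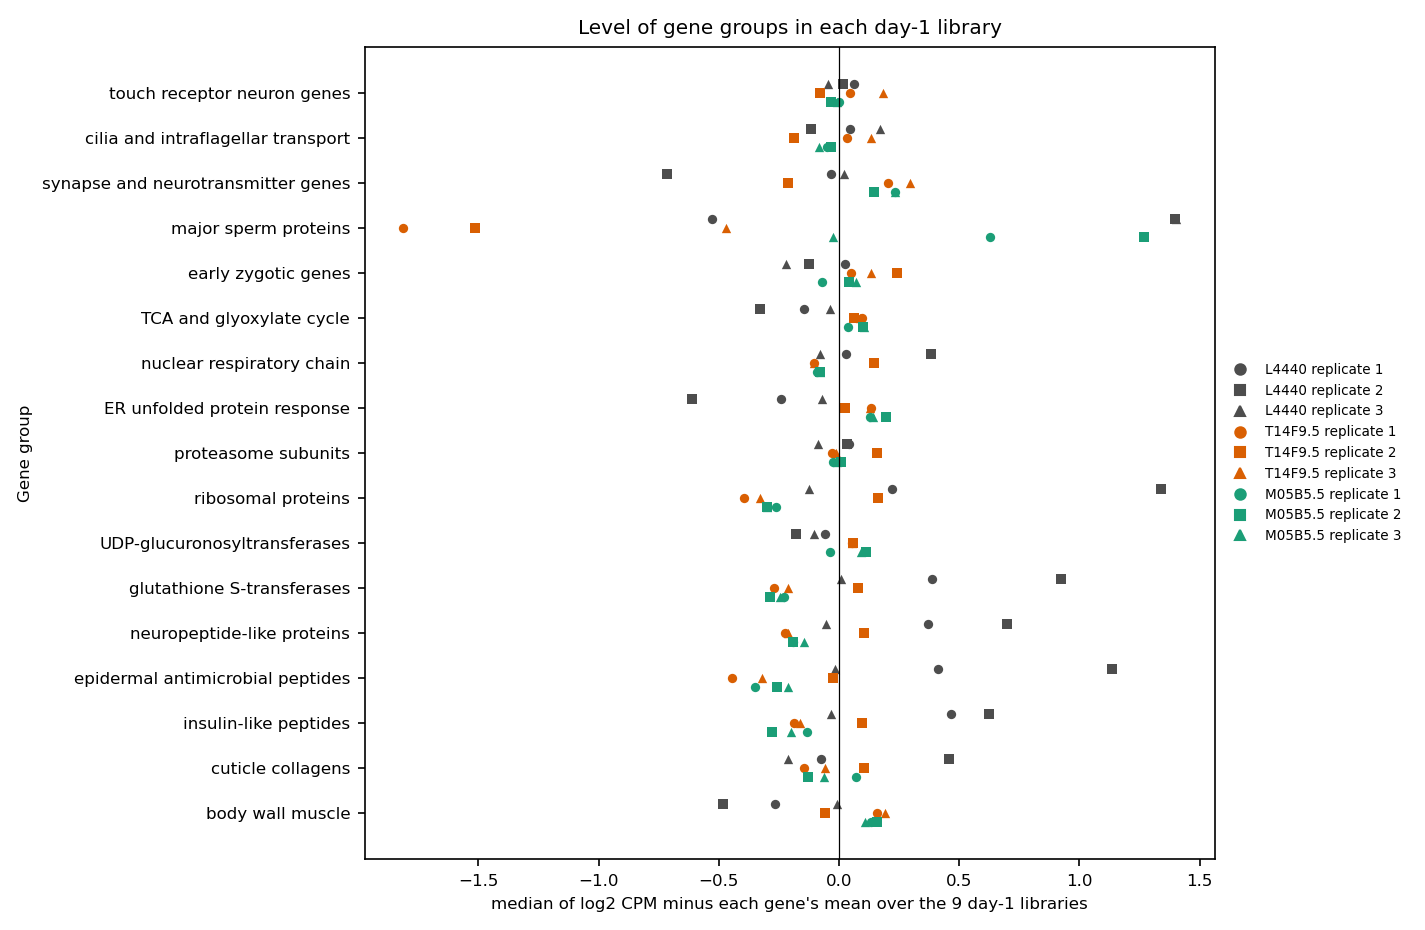
Level of 17 gene groups (vertical) in each of the 9 day-1 libraries: the median over the tested genes of a group of log2 CPM minus the gene's mean over the 9 libraries (horizontal). L4440 replicate 2 is the outermost point in most groups, T14F9.5 replicate 2 often lies toward L4440 replicate 1, and the sperm proteins spread from -1.81 to 1.402 while the touch receptor genes stay near 0.

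Pseudogenes lay below the controls more often than above them. Of 452 annotated pseudogenes that passed the filter, the libraries labelled T14F9.5 lay below all controls for 115 (25.4%) and above them for 7 (1.55%), beside 8.25% and 8.9% of all genes. The median log2 fold change was -0.32, or -0.31 without L4440 replicate 2. Their median length of 1048 bases falls in the length bin of 798 to 1179 bases, whose medians were -0.21 and -0.08. With the length offset the medians of the pseudogenes were -0.28 and -0.25. The level of the class in each library, as a median log2 CPM against the gene's mean, was 0.29, 0.21 and 0.13 in L4440 and -0.03, -0.13 and -0.14 in the libraries labelled T14F9.5. M05B5.5 stood at 0.06, -0.10 and -0.15. Reads of a pseudogene can come from its parent gene, and the share of such reads was not tested.

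Of the 6 nuclear chromosomes the X had the highest median, though its level overlapped between the groups. Of 2067 tested X-linked genes, 252 (12.19%) lay above all controls and 101 (4.89%) below, beside 8.9% and 8.25% of all genes. The median log2 fold change was 0.14, or 0.08 without L4440 replicate 2, and 0.06 in both fits with the length offset. As a median log2 CPM against the gene's mean, the level of the X was -0.03, -0.29 and 0.01 in L4440. In the libraries labelled T14F9.5 it was 0.08, -0.01 and 0.10. M05B5.5 stood at 0.06, 0.09 and 0.11. On the autosomes the median log2 fold changes lay between -0.10 (chromosome V) and -0.01 (chromosome I) with all libraries and between -0.03 and 0.01 without L4440 replicate 2. With the length offset they lay between -0.08 and -0.04 and, without that replicate, between -0.01 and 0.02. X-linked genes had a median of 1513 bases, the longest of the 6 nuclear chromosomes.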

How the data were processed

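Per the labels, the libraries were prepared from total RNA of whole worms with a TruSeq RNA kit. Per the submitters' processing notes, the tools were bcl2fastq 1.8.4, STAR 2.4.1d and featureCounts 1.4.6-p4, on the WBcel235 build. The strand setting and the annotation release are not given in the sources used here, so reads of overlapping genes on opposite strands cannot be told apart. The authors deposited raw read counts per gene for 46748 genes, and these were used. The deposited RPKM table was not used. Names, lengths and coordinates of genes were taken from Ensembl's WBcel235 annotation, in which 299 of the identifiers are missing.

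Counts were tested with edgeR 4.0.16 in R 4.3.3 (filterByExpr with a minimum count of 10, TMM factors, robust quasi-likelihood tests, Benjamini-Hochberg adjustment over all genes at 0.05) over the 9 day-1 libraries, and over 8 without L4440 replicate 2. A prior count of 2 went into log2 values. The length offset is a spline of 4 degrees of freedom on log2 gene length for each library. DESeq2 1.42.0 was an alternative. The steps were tested on simulated data. Lanes are those in the labels' descriptions: L4440 ran on lanes 1, 2 and 2 and T14F9.5 on lanes 1, 1 and 2. Genes were named as the 12 protein-coding genes in each direction with at least 5 CPM, no overlap between groups and, where none passed the threshold, the lowest unadjusted p without L4440 replicate 2. The members, the 50 gene lists and the alternatives were chosen with earlier results of these data known. Members of a gene list that did not pass the count filter are left out of its counts. Figures were drawn with matplotlib 3.10.9.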

Additional observations from a re-analysis of the deposited data

How the results depend on the processing

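No paired analysis was possible because the replicate numbers follow accession order and pair no samples. With all libraries, the count of called genes stayed at 0 with a lane term, the length offset, libraries of both ages, only the 2 groups compared, a minimum count of 50, no filter, and upper-quartile or RLE factors, and on leaving out the pair that shares index and lane. DESeq2 called 207 genes, and leaving out 1 library gave 0 to 3058. Without L4440 replicate 2, DESeq2 called 78, no filter 2 (ugt-63 and vet-6), the length offset 9, leaving out the shared pair 1178 (870 higher, 308 lower), and leaving out 1 further library gave 0 to 631. The 1178 and the 631 rest on 1 L4440 library, which is assumed to vary like the other groups, and the other alternatives gave 0. Against M05B5.5, in place of 3, DESeq2 called 38, no filter 8, libraries of both ages 1, the compared groups alone 6, the length offset 8, and leaving out the shared pair 0. Leaving out 1 library gave 0 to 0, and a lane term could not be fitted. The cause of these differences was not tested. The direction of the named genes held under every alternative except kin-33, at -0.0353 with the length offset and all libraries, where the main value was 0.52. Of the 800 list medians recomputed with all libraries 711 moved by less than the spread between replicates, and of 750 without L4440 replicate 2, 676 did. Depth limits what can be said of genes under 1 CPM.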

Other observations

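Noncoding genes other than pseudogenes had the libraries labelled T14F9.5 below all controls more often than above them, where 8.25% of all genes lay below and 8.9% above. Of 37 annotated long intergenic noncoding RNA genes that passed the filter, 9 (24.3%) had all 3 of those libraries below all 3 of L4440 and 0 had them above, with a median log2 fold change of -0.69 with all libraries and -0.32 without L4440 replicate 2. With the gene length offset the medians were -0.27 and -0.19, the genes having a median of 566 bases. Of 72 genes annotated as other noncoding RNA, 14 (19.4%) lay below and 1 above, with medians of -0.46 and -0.33, and -0.18 and -0.16 with the offset. Small nucleolar RNA genes, which guide the modification of ribosomal RNA, numbered 33, and 6 (18.2%) lay below and 1 above. Their median was -0.41, or -0.43 without that replicate, and with the length offset it was 0.01 and -0.09. The labels do not say how transcripts without a poly(A) tail entered the libraries, and the part of library composition in these values was not tested.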
